A study of Mus musculus with 60 samples.

Results

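Lymphocyte and plasma cell genes were followed through the mammary glands of ovariectomized mice given estrogen, progesterone or both. The set holds 35 listed genes, of which 32, among 15965 genes named on the arrays, had a probe set on the arrays whose annotation gives that symbol alone. Lck, Tcf7 and Ccl19 had none and are not described. The 32 genes were read by 49 of the 36899 probe sets, and 39 of these, for 31 genes, were bright enough in at least 3 animals to be tested. The gene that was too dim was Cxcr5, through which B cells sense the chemokine CXCL13, whose signal lay between 4.4 and 70.9. By role, 7 of 8 B cell genes, 4 of 4 genes of plasma cells and antibody secretion, 11 of 13 T cell genes, 3 of 4 genes of lymphocyte homing and 6 of 6 genes shared by leukocytes were tested. The members come from a list of named genes and not from a threshold on a measured value, though the list was drawn up with earlier results of these data known.

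All animals had been ovariectomized and injected into the peritoneum daily for 4 days. The groups were E+P (5 animals, 2 µg 17-beta-estrogen and 1 mg progesterone), E (4 animals, 2 µg 17-beta-estrogen), P (4 animals, 1 mg progesterone), E+P CFP (3 animals, fat pads without epithelium, both hormones) and V (4 animals, 100 µl sesame oil). The labels give neither strain nor age, and lymph nodes had been removed when the glands were collected, as the design text states. RNA of each animal was read on 3 Affymetrix array types, A, B and C of the MG-U74 set, as a linear signal.

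B cells carry an antibody as their antigen receptor, and its signal passes through the chains encoded by Cd79a and Cd79b. T cells carry a T cell receptor that signals through the CD3 chains and the kinase ZAP70, with CD4 or CD8 as coreceptor. Plasma cells are B cells that have turned to antibody secretion, and in the mammary gland they supply the immunoglobulin of milk. Lymphocytes enter tissues and gather in follicles along chemokines such as CXCL13, and lymph nodes lie embedded in the mouse mammary fat pad.

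The signals of these genes divided the animals within V, P and E+P, and no member passed a test between groups when all animals entered with equal weight in a variance model with an intensity trend. Signals were low together in V 1, V 2, V 3, P 4, E+P 1, E+P 3 and E+P 5. They were high together in V 4, P 3, E+P 2, E+P 4 and the 4 E glands, with P 1 in between and the fat pads in between or high. P 2 was high as well in the mean over the set, though not for B cell and plasma cell genes. The mean deviation of the 31 tested genes from each gene's own mean over the 20 animals, in log2 units, shows the order. It was -1.14, 0.64, -1.04, 0.61 and -1.24 in E+P 1 to E+P 5 and 0.39, 1.57, 0.60 and 0.97 in E 1 to E 4. In the P glands it was -0.16, 0.69, 0.76 and -1.26, in the fat pads -0.05, 0.35 and 0.66, and in the V glands -1.22, -1.18, -1.22 and 1.27. The E glands and the fat pads were the groups with no animal among the low ones. Less RNA per cell and fewer lymphocytes in a gland cannot be told apart in these bulk samples.

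The order of animals was shared by nearly the whole set. The patterns counted here were chosen after the members' own values were seen. The shares over all genes therefore give a scale and are no test of the set. V 4 was the highest V animal for 29 of 31 genes, against 30.4% of all 12233 tested genes. P 4 was the lowest P animal for 27 of 31 genes, against 21.1% of all genes. E+P 2 and E+P 4 both lay above the other E+P animals for 27 of 31 genes, against 10.6% of all genes. These 3 patterns held together for 24 member genes and for 1.97% of all genes, that is 241 genes, 217 of them not members. E 2 was the highest E animal for 24 of 31 genes, against 23.8% of all genes. The exceptions were Lat and Irf4 for V 4, Cd3g, Ikzf1, Cd22 and Cd5 for P 4, and Lat, Ikzf1, Cd4 and Irf4 for the E+P glands.

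**Figure D1:**
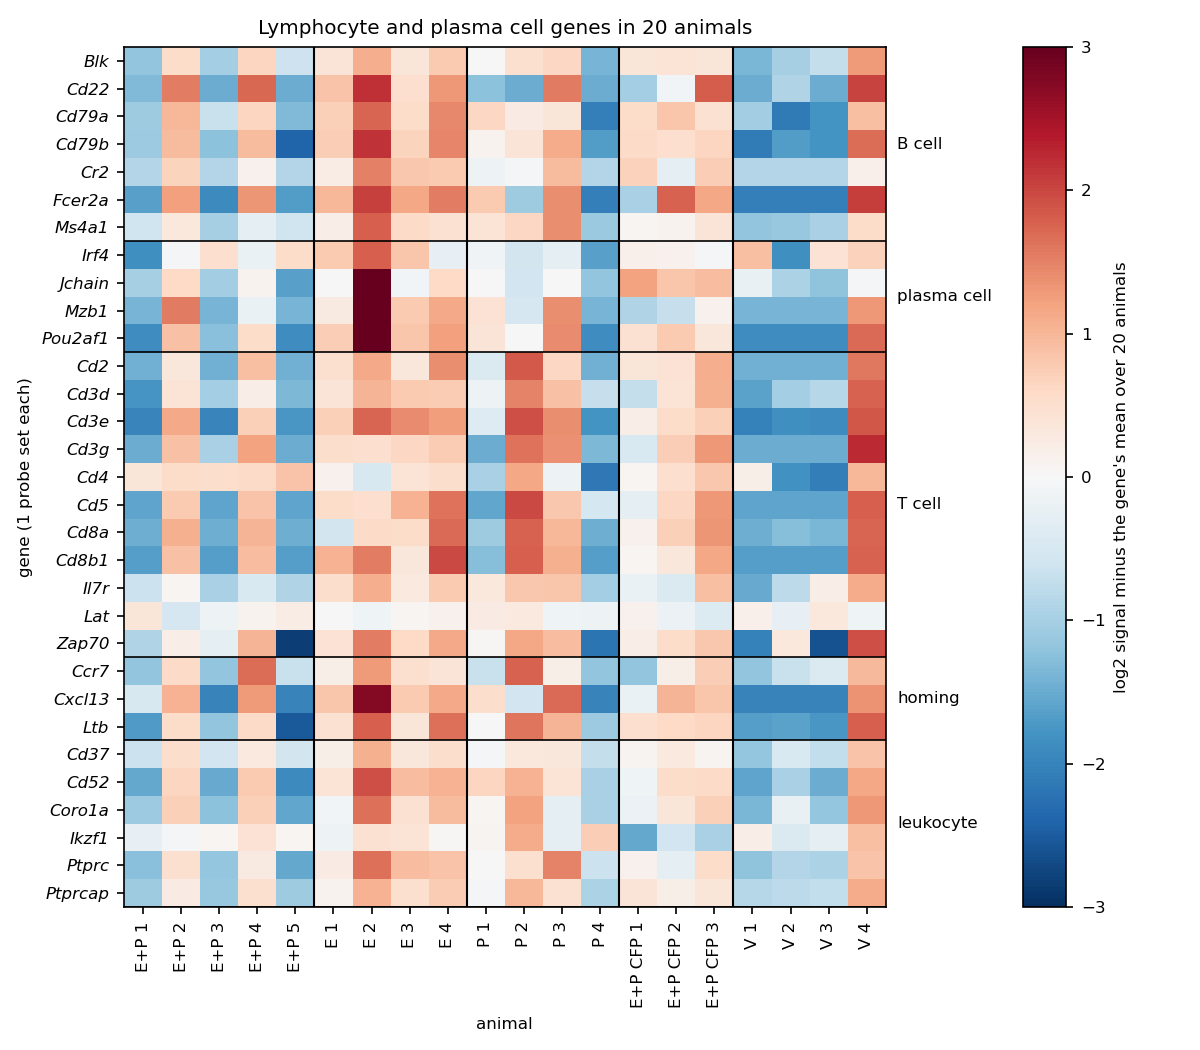
Lymphocyte and plasma cell genes in each of 20 animals, as the log2 signal minus the gene's mean over all animals (colours stop at -3 and 3). Rows are the 31 tested genes by role and columns are animals by group. V 1, V 2, V 3, P 4, E+P 1, E+P 3 and E+P 5 are blue for most genes and V 4, E 1 to E 4, E+P 2 and E+P 4 are red. P 3 is also red for most genes, and P 2 for T cell genes.

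A test was passed when the Benjamini-Hochberg adjusted p of limma, over all 23055 tested probe sets, was below 0.05. No member probe set passed it in any of the 7 comparisons in the fit used throughout, which keeps all animals, weighs them equally and lets the variance follow intensity. With the animals weighted 6 passed in E against V, and without the intensity trend 1 passed in E+P against E+P CFP. Differences are given as log2 differences between group means ± the standard error of limma. Signals below the floor, 13.5 on array type A, 28.5 on B and 19.8 on C, are printed as measured but have no order among themselves and entered the fit at the floor. Where animals lay at the floor, the fitted difference depends on where the floor is set and is not a bound. Signals of different genes are not set against each other, because probe sets differ in brightness.

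B cell genes were high in every E gland and in V 4. Cd79a, a signalling chain of the B cell receptor, had signals of 70.9, 297, 93.4, 235 and 60.2 in the E+P glands and 244, 500.3, 220.2 and 409 in the E glands. Its signals were 229, 177, 192 and 35.9 in the P glands, 219, 268 and 205 in the E+P CFP fat pads and 73.1, 34.3, 43.3 and 280.3 in the V glands. The E glands lay between 220.2 and 500.3, above V 1 to V 3 but around V 4. P 4 stood apart from the other P glands. Cd79b, its partner chain, had signals of 78.9, 323, 71.7, 325 and 31.5 in the E+P glands and 278, 749.8, 267 and 459.6 in the E glands. Its signals were 181, 218, 362 and 52.4 in the P glands, 249, 239 and 259.8 in the E+P CFP fat pads and 39.2, 52.7, 47.9 and 535 in the V glands. V 4 exceeded 3 of the 4 E glands for this gene, and V 1 to V 3 lay below every E gland. Ms4a1, which encodes the B cell surface protein CD20, had signals of 172, 323, 130.4, 210.4 and 171 in the E+P glands and 294, 891, 382 and 357 in the E glands. Its signals were 342, 396, 683 and 119 in the P glands, 267, 279.8 and 338 in the E+P CFP fat pads and 114, 117, 132 and 376 in the V glands. E 2 had the brightest value of all animals, and E+P CFP values were close together.

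Fcer2a, which encodes the low-affinity IgE receptor CD23 of mature B cells, had signals of 18.3, 133, 15, 139.9 and 17.5 in the E+P glands and 112, 233, 126 and 162 in the E glands. Its signals were 96.7, 26.7, 147 and 7.2 in the P glands, 28.8, 193 and 125 in the E+P CFP fat pads and 5, 12.5, 6 and 236 in the V glands. V 1 to V 3 and P 4 were below the floor, while V 4 had the highest signal of all 20 animals. Cr2, the complement receptor CD21 of mature B cells and follicular dendritic cells, had signals of 6.6, 83.7, 11, 57.7 and 9.2 in the E+P glands and 61, 149, 91.8 and 91 in the E glands. Its signals were 47.1, 51.5, 102 and 3.5 in the P glands, 85, 43.8 and 87.2 in the E+P CFP fat pads and 6.4, 6.3, 8 and 58.2 in the V glands. Every E gland exceeded every V gland for Cr2, with 61.0 as the lowest E value and 58.2 as the highest V value. It was the 1 gene of 31 whose E and V groups did not overlap, with E higher, against 3.77% of all genes. Its probe set exceeded the filter level of 85.7 only in E 2, E 3, E 4, P 3 and E+P CFP 3. It was therefore tested only because it is bright in E, and the lack of overlap is no separate support. A probe set of Cr2 on array type A, too dim to be tested, overlapped, with 15.3 in E 1 and 21.6 in V 4. The inhibitory receptor gene Cd22 lay between 53.4 and 175 in the E glands and between 6.8 and 154 in the V glands, the top value being that of V 4. Blk, a Src family kinase of B cells, lay between 100.1 and 167 in the E glands and between 30 and 190.4 in the V glands.

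Set against vehicle, estrogen gave B cell differences between 1.11 for Blk and 2.46 for Fcer2a, with a median of 1.68 over 7 genes. Cd79a averaged 8.34 ± 0.57 in E and 6.21 ± 1.36 in V on the log2 scale (SD, n = 4 each). Its difference was 2.12 ± 0.63 (adjusted p = 0.175). That of Cr2 was 1.45 ± 0.45 (adjusted p = 0.192) and that of Ms4a1 1.44 ± 0.45 (adjusted p = 0.201). None of the 7 passed the test.

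**Figure D2:**
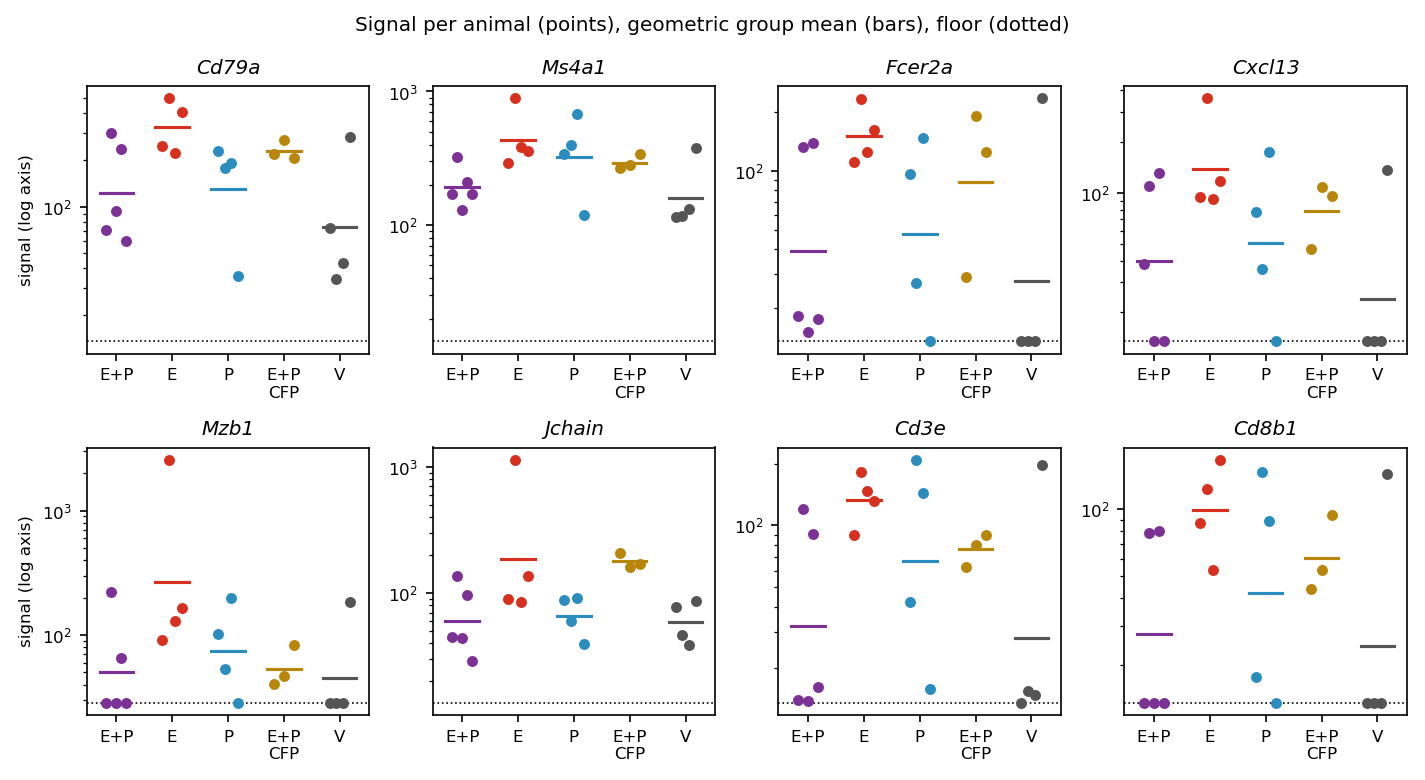
Signal per animal on a log axis for Cd79a, Ms4a1, Fcer2a, Cxcl13, Mzb1, Jchain, Cd3e and Cd8b1, by group, with values below the floor (dotted line) drawn at it. Points are animals and bars geometric group means. In V, 1 animal lies far above the other 3 for most of these genes, and for Mzb1 and Jchain 1 E animal lies far above all others.

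Plasma cell genes set E 2 apart from all other animals. Mzb1, a chaperone of the endoplasmic reticulum that helps antibodies to assemble, had signals of 18.7, 221, 23.9, 65.9 and 14.1 in the E+P glands and 91.6, 2571, 131 and 166 in the E glands. Its signals were 102, 53.3, 199.7 and 18.2 in the P glands, 40.3, 46.7 and 82.5 in the E+P CFP fat pads and 14.6, 11.7, 24.7 and 186 in the V glands. E 2 stood far above the next animal, E+P 2. Jchain, the chain that joins the units of secreted IgA and IgM, had signals of 45, 136, 43.8, 97.1 and 29.2 in the E+P glands and 90.5, 1138, 85.3 and 137 in the E glands. Its signals were 88.7, 60.5, 90.8 and 39.7 in the P glands, 207, 160.5 and 169.9 in the E+P CFP fat pads and 77.1, 46.8, 38.7 and 87.1 in the V glands. E 2 was the highest for this gene as well, and the 3 fat pads came next. Pou2af1, a B cell coactivator that works with octamer-binding factors, had signals of 12.3, 88.9, 20.5, 70.9 and 2.6 in the E+P glands and 81.6, 413, 86.6 and 114 in the E glands. Its signals were 63.6, 48.6, 131 and 3.6 in the P glands, 67.4, 83.4 and 61.2 in the E+P CFP fat pads and 6.5, 2.8, 2.4 and 157 in the V glands. Here too E 2 was the highest, followed by V 4.

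Irf4, a transcription factor of plasma cells and activated lymphocytes, had signals of 12.4, 47.2, 68, 42.2 and 70.8 in the E+P glands and 83.8, 167, 86.6 and 40.5 in the E glands. Its signals were 44.9, 33.1, 39.3 and 15.5 in the P glands, 53.9, 53.2 and 46.2 in the E+P CFP fat pads and 90.9, 11.5, 64.8 and 78.3 in the V glands. Irf4 did not follow the other 3 genes: V 1 and V 3 were bright for it, and E 4 was among the dimmer animals. Set against V, E differed for Mzb1 by 2.55 ± 0.87 (adjusted p = 0.237), for Pou2af1 by 2.44 ± 0.82 (adjusted p = 0.233), for Jchain by 1.66 ± 0.61 (adjusted p = 0.274) and for Irf4 by 0.75 ± 0.58 (adjusted p = 0.656). Without E 2 the differences were 1.46 for Mzb1, 1.90 for Pou2af1, 0.79 for Jchain and 0.41 for Irf4. All 4 were smaller without that animal, those of Mzb1, Jchain and Irf4 by more than 1.5 times.

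T cell genes were high in V 4, P 2 and P 3 as well as in the E glands. Cd3e, a CD3 chain of the T cell receptor complex, had signals of 13.9, 119.5, 13.8, 90.5 and 16.2 in the E+P glands and 89.4, 183, 147 and 132 in the E glands. Its signals were 41.9, 209.6, 145 and 15.8 in the P glands, 62.6, 79.9 and 89.4 in the E+P CFP fat pads and 13.2, 15.4, 14.8 and 198 in the V glands. P 2 and V 4 had the highest signals, and E+P 1, E+P 3, E+P 5, P 4 and V 1 to V 3 lay near the floor. Cd3g, another CD3 chain, had signals of 6.9, 69.6, 19.4, 87.8 and 1.2 in the E+P glands and 54.5, 54.1, 58.7 and 64.1 in the E glands. Its signals were 9.1, 117, 98.9 and 15 in the P glands, 27.6, 63.8 and 94.6 in the E+P CFP fat pads and 1.7, 6, 2.9 and 181 in the V glands. The E glands lay close together, and V 4 was far above the other V animals. Cd8b1, a chain of the CD8 coreceptor of cytotoxic T cells, had signals of 4.8, 78.3, 3, 80.2 and 5.8 in the E+P glands and 87, 123, 53.5 and 167 in the E glands. Its signals were 17.6, 148, 89 and 3.8 in the P glands, 43.9, 53.6 and 94.8 in the E+P CFP fat pads and 5.9, 4.7, 4.2 and 144 in the V glands. Signals above the floor came from all E glands and fat pads, from E+P 2, E+P 4, V 4 and from P 1 to P 3.

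Zap70, the kinase recruited by the activated T cell receptor, had signals of 51.9, 111, 78.9, 196 and 11.3 in the E+P glands and 131, 278, 147 and 212 in the E glands. Its signals were 98.7, 214, 182 and 21 in the P glands, 110.2, 140.4 and 168 in the E+P CFP fat pads and 23.6, 119.6, 15.7 and 367 in the V glands. V 4 had the highest signal and V 2 lay above V 1 and V 3. Il7r, the receptor for the survival cytokine IL-7, had signals of 35.3, 57.1, 27.9, 39.6 and 29.1 in the E+P glands and 79, 117, 67.2 and 94.8 in the E glands. Its signals were 67.9, 96.2, 97.6 and 27.1 in the P glands, 47.8, 40.5 and 102 in the E+P CFP fat pads and 19.1, 32, 62.9 and 118 in the V glands. Every E+P gland was dimmer than every E gland for Il7r, the 1 gene of 31 with no overlap in that direction, against 1.92% of all genes. Its difference in E+P against E was -1.26 ± 0.46 (adjusted p = 0.337).

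Of the other T cell genes, Cd3d lay between 59.8 and 92.5 in the E glands and between 15 and 155 in the V glands. The CD8 chain gene Cd8a lay between 25.4 and 120.0 in E and between 5.6 and 124 in V, the adhesion molecule gene Cd2 between 46.6 and 95.8 in E and between 5.6 and 110.3 in V, and Cd5, an inhibitor of receptor signalling, between 57.3 and 124 in E and between 5.6 and 139 in V. For all 4 the highest V value was that of V 4. Cd4, the coreceptor of helper T cells, had signals of 112, 129, 127, 129.9 and 158 in the E+P glands and 95.6, 63.2, 116 and 127 in the E glands. Its signals were 44.4, 196, 78.7 and 19.9 in the P glands, 92.1, 124 and 155 in the E+P CFP fat pads and 99.1, 24.8, 21 and 174 in the V glands. Unlike most T cell genes, Cd4 was bright in all 5 E+P glands and in V 1. Lat, an adaptor protein below the T cell receptor, stayed between 112 and 206 in the E+P glands, between 145 and 175 in the E glands and between 135 and 198 in the V glands. It did not follow the other genes, and its difference in E against V was -0.01 ± 0.19 (adjusted p = 0.986).

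In E against V the 11 T cell genes had a median difference of 1.17, and 10 were above 0. Cd3e differed by 2.26 ± 0.87 (adjusted p = 0.303), Cd8b1 by 2.02 ± 0.85 (adjusted p = 0.34), Cd5 by 1.67 ± 0.81 (adjusted p = 0.421) and Zap70 by 1.53 ± 0.87 (adjusted p = 0.504). No T cell gene passed the test.

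The 3 genes of lymphocyte homing followed the same animals. Cxcl13, the chemokine that draws B cells into follicles, had signals of 38.5, 110.2, 2.2, 131 and 1.5 in the E+P glands and 95.2, 360.2, 92.7 and 118 in the E glands. Its signals were 77.7, 36, 175 and 5.7 in the P glands, 46.8, 108 and 96.1 in the E+P CFP fat pads and 5.2, 2.1, 2 and 136 in the V glands. V 1 to V 3, P 4, E+P 3 and E+P 5 were below the floor. Ltb, the membrane-bound lymphotoxin chain that lymphocytes use to organise lymphoid tissue, had signals of 72.7, 342, 103, 348 and 40.7 in the E+P glands and 319.6, 808, 299.7 and 737 in the E glands. Its signals were 232, 708, 474 and 110.2 in the P glands, 332, 352 and 365 in the E+P CFP fat pads and 75, 76.8, 70.3 and 810.4 in the V glands. The lowest E signal, 299.7, lay above V 1 to V 3 and below V 4. Ccr7, the receptor that guides T cells and dendritic cells to lymph nodes, had signals of 6.7, 45.5, 12.8, 98.2 and 19.3 in the E+P glands and 34.5, 74.3, 42.6 and 40.3 in the E glands. Its signals were 19.5, 104, 34.6 and 6.5 in the P glands, 9.3, 34.6 and 51.1 in the E+P CFP fat pads and 2.4, 19.5, 22.7 and 60.5 in the V glands. The difference of E against V was, for Cxcl13, 2.53 ± 0.87 (adjusted p = 0.239), for Ltb 1.86 ± 0.75 (adjusted p = 0.323) and for Ccr7 0.90 ± 0.70 (adjusted p = 0.654).

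Genes that most leukocytes share showed the same order of animals. Cd52, a small surface glycoprotein abundant on lymphocytes, had signals of 106, 479, 108, 531 and 82.7 in the E+P glands and 408, 1177, 586 and 641 in the E glands. Its signals were 483, 635, 409 and 157 in the P glands, 281, 452 and 462 in the E+P CFP fat pads and 103, 157, 110.3 and 684 in the V glands. V 4 lay above 3 of the 4 E glands. Ptprc, the CD45 phosphatase of nucleated blood cells, had signals of 48.2, 160.0, 51.5, 139 and 39.4 in the E+P glands and 136, 359, 217 and 208 in the E glands. Its signals were 114, 161, 324 and 73 in the P glands, 126, 93.4 and 168 in the E+P CFP fat pads and 49.6, 62.8, 59 and 209 in the V glands. E 2 and P 3 had the highest signals. The tetraspanin gene Cd37 lay between 193 and 361 in E and between 76.2 and 308 in V, the actin regulator gene Coro1a between 220.2 and 737 in E and between 90.2 and 575 in V, and the CD45-associated protein gene Ptprcap between 307 and 587 in E and between 159 and 624 in V. In each of these the 3 lowest V animals were below every E gland. Differences in E against V were 1.80 ± 0.63 (adjusted p = 0.247) for Cd52, 1.46 ± 0.51 (adjusted p = 0.251) for Ptprc, 0.91 ± 0.35 for Cd37, 1.11 ± 0.59 for Coro1a and 0.90 ± 0.45 for Ptprcap.

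Ikzf1, the Ikaros transcription factor of lymphocyte development, was read differently by its probe sets. The probe set that stands for the gene, on array type A, lay between 33.1 and 52.5 in E+P, between 35.1 and 53.8 in E, between 32.5 and 84.8 in P, between 11.4 and 26.2 in E+P CFP and between 28.8 and 73.1 in V. It did not follow the other members. A probe set on array type B had 60.1, 209.6, 80, 198 and 100.4 in the E+P glands and 203, 459, 208 and 239 in the E glands. In the P glands it had 173, 243, 220.1 and 104, in the fat pads 139, 137 and 267 and in the V glands 43.2, 71.5, 41.4 and 281, which is the order of the other members. In E against V that probe set differed by 1.75 ± 0.50 (adjusted p = 0.154), another one on B by 1.56 ± 0.70 (adjusted p = 0.37) and the one on A by 0.09 ± 0.36 (adjusted p = 0.95). A further probe set on A was too dim to be tested.

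Some other genes with several tested probe sets disagreed as well. In E against V a probe set of Cd3d on array type C differed by -1.19, against 1.17 for the one on A. A second one of Zap70 on A differed by -0.53, against 1.53. A probe set of Coro1a on C stood at 0.01, against 1.11, and one of Cd3e on B at 0.63, against 2.26. The second probe sets of Ms4a1 and Ptprc, at 2.19 and 1.70, had the sign of the first. In all, 11 members had more than 1 probe set.

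In estrogen against vehicle nearly all members lay above 0. Of the 31 genes 30 did so, and their median difference was 1.46, beside 0.0002 over all 12233 genes. None of the 39 member probe sets was called, where 0.182% of all tested probe sets were, and the smallest adjusted p among members was 0.154. An unadjusted p below 0.05 was found for 22 of 39 member probe sets and for 12.1% of all tested ones. By the probe set that stands for each gene it was 17 of 31. The second probe sets include some that were lower in E, such as that of Cd3d on C, with log2 means of 5.61 in E and 6.80 in V. The largest differences were those of Mzb1, Cxcl13, Fcer2a and Pou2af1, at 2.55, 2.53, 2.46 and 2.44.

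The calls in this comparison depended on V 4. Each animal was left out in turn, and V 4 was the highest V animal for 29 of 31 genes. Leaving it out therefore raises most differences by construction, and the calls it gives are no separate support. Without V 4 the median difference was 1.93, and 5 of 39 member probe sets passed the test, against 0.62% of all probe sets. They were Cd79a at 2.76 ± 0.58 (adjusted p = 0.0341), Cd79b at 3.11 ± 0.67 (adjusted p = 0.0381), Pou2af1 at 3.32 ± 0.73 (adjusted p = 0.0413), the second probe set of Ms4a1 at 2.90 (adjusted p = 0.0428) and the B probe set of Ikzf1 at 2.37 (adjusted p = 0.0131). With all animals kept but each weighted by its agreement with the fit, 6 passed, against 1.22% of all probe sets. These were the same 5 and the first probe set of Ms4a1. T cell genes did not pass in either setting, with Cd3e at 3.20 ± 0.78 (adjusted p = 0.066) without V 4.

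**Figure D3:**
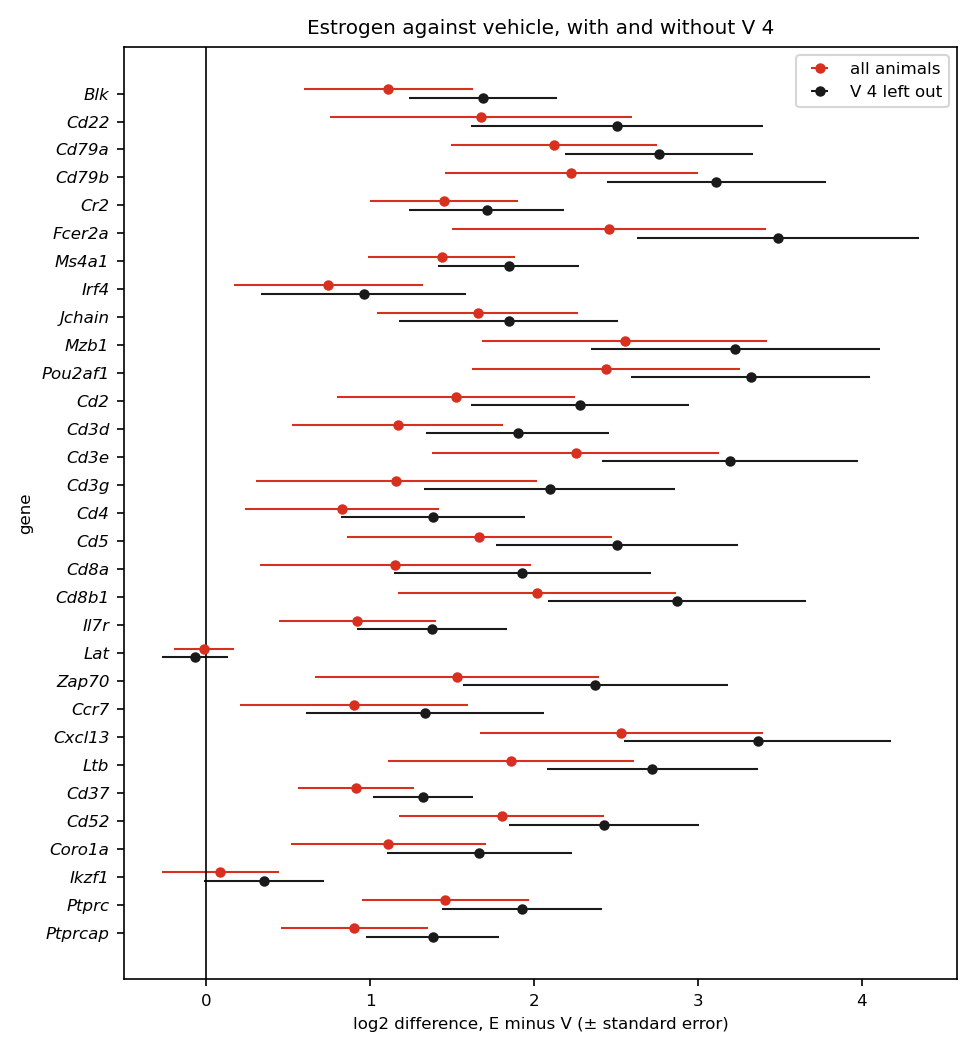
Log2 difference E minus V with its standard error for the 31 tested genes, with all animals and with V 4 left out. Without V 4 most differences are larger and the bars shorter, while Lat stays near 0 in both.

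Progesterone against vehicle gave no call. The median over the 31 genes was 0.65, beside 0.0043 over all genes, and 29 were above 0. By role it was 0.79 for B cell, 0.44 for plasma cell, 0.65 for T cell, 1.07 for homing and 0.39 for shared leukocyte genes. The largest was Cd3e at 1.26 ± 0.87 (adjusted p = 0.759), followed by Ltb at 1.18 ± 0.75 and Cxcl13 at 1.07 ± 0.87. The smallest adjusted p was 0.584 over the 31 genes and 0.468 over all member probe sets, so the latter was that of a second probe set. Among the second probe sets, that of Cd3d on C averaged 5.45 in P and 6.80 in V on the log2 scale, lower in P. No probe set of any gene was called by limma (0%), while 4 of 39 member probe sets and 8.07% of all had an unadjusted p below 0.05. P 4 was the low animal of P and V 4 the high animal of V. The median was 1.15 without P 4 and 1.42 without V 4, but 0.27 without P 2 and 0.33 without P 3. It was 0.28 with the floor at the 40th percentile and 0.42 with an offset in place of the floor.

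Both hormones together against vehicle left the median of the members at 0.13, beside 0.0198 over all genes, with 22 of 31 genes above 0. The test called 0 of 39 member probe sets, against 0.464% of all, and 2 of 39 had an unadjusted p below 0.05, against 10.7% of all. Cd4 had the largest difference, 1.25 ± 0.56 (adjusted p = 0.424), and Cd79a stood at 0.72 ± 0.60. Both groups held high and low animals here, E+P 2 and E+P 4 in one and V 4 in the other. The median was 0.81 without V 4 and -0.21 without E+P 4, and it moved by more than 1.5 times whichever E+P or V animal was left out, so its sign rested on single animals.

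In E+P against E the members lay below 0, except Cd4. The median was -1.42, beside 0.018 over all genes, with 1 of 31 above 0. Of 39 member probe sets 0 were called, against 0.143% of all, although 24 of 39 had an unadjusted p below 0.05, against 9.92% of all. By the probe set that stands for each gene it was 20 of 31. The second probe set of Cd3d, on C, was higher in E+P, with log2 means of 6.59 in E+P and 5.61 in E. Mzb1 stood at -2.40 ± 0.83 (adjusted p = 0.307), Pou2af1 at -2.18 ± 0.77 (adjusted p = 0.327), Cd3e at -2.06 ± 0.83 (adjusted p = 0.388) and Ptprc at -1.55 ± 0.48 (adjusted p = 0.258), the last holding the smallest adjusted p. The E+P and E groups overlapped for 30 of 31 genes, all but Il7r. By role the medians were -1.40 for B cell, -1.91 for plasma cell, -1.43 for T cell, -1.80 for homing and -1.17 for shared leukocyte genes. The comparison shares the E animals with E against V.

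In E+P against P the median was -0.52, beside 0.0118 over all genes, with 3 of 31 above 0. Calls were 0 among the members, against 0.36% of all, and 1 of 39 had an unadjusted p below 0.05, against 11.5%. That 1 was a second probe set, since 0 of the 31 genes were below 0.05 by the probe set that stands for them. The probe set of Cd3d on C averaged 6.59 in E+P and 5.45 in P on the log2 scale, the other direction from the one on A given next. Ltb stood at -1.23 ± 0.71 (adjusted p = 0.544) and Cd3d at -1.08 ± 0.61 (adjusted p = 0.531), while Cd4 stood at 1.10 ± 0.56 (adjusted p = 0.474) in the other direction. In both groups some animals were high and some low for these genes. The median was -0.19 without P 2, -0.21 without P 3, -0.99 without P 4, -0.33 without E+P 1, -0.78 without E+P 2, -0.79 without E+P 4 and -0.22 without E+P 5. It stayed below 0 in these settings, while its size rested on single animals.

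The interaction asks whether the 2 hormones together differ from the sum of their single differences. Its median over the members was -2.06, beside 0.0206 over all genes, and 1 of 31, Cd4, was above 0. No member probe set was called, against 0.0737% of all, and 24 of 39 had an unadjusted p below 0.05, against 11.7%. By the probe set that stands for each gene it was 19 of 31. The smallest adjusted p over all member probe sets, 0.170, was that of a second probe set. Not all second probe sets lay below 0. That of Cd3d on C averaged 6.59 in E+P, 5.61 in E, 5.45 in P and 6.80 in V on the log2 scale, an interaction above 0. Cd3e stood at -3.32 ± 1.21 (adjusted p = 0.291), Pou2af1 at -3.14 ± 1.13 (adjusted p = 0.286), Ltb at -3.09 ± 1.04 (adjusted p = 0.258) and Ms4a1 at -2.19 ± 0.62 (adjusted p = 0.187). Leaving out 1 animal gave a call in 2 cases. Without P 4, Ms4a1 passed at -2.67 (adjusted p = 0.0472), against 0.187% of all probe sets called. Without V 4, the B probe set of Ikzf1 passed at -2.99 (adjusted p = 0.0297), against 0.208%. P 4 and V 4 are the animals that stood apart in their groups for most members, so these calls are no separate support.

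Whole glands set against fat pads without epithelium, all given both hormones, ask what of the signal belongs to the stroma. The fat pads lacked epithelium by their markers: the summed signal of 11 luminal genes lay between 4852 and 7728 in E+P and between 252 and 265 in E+P CFP. The lymphocyte genes were present in the fat pads, with a median difference of -0.90 over the 31 genes, beside 0.0273 over all genes, and 3 above 0. By role the medians were -0.76 for B cell, -0.76 for plasma cell, -1.07 for T cell, -0.98 for homing and -0.78 for shared leukocyte genes. No member probe set was called, against 7.9% of all, and 2 of 39 had an unadjusted p below 0.05, against 20.1%. Jchain was dimmer in every E+P gland than in every fat pad, at -1.57 ± 0.63 (adjusted p = 0.151), the 1 member without overlap in that direction, against 7.82% of all genes. Ikzf1, by its probe set on A, was brighter in every E+P gland, at 1.08 ± 0.37 (adjusted p = 0.0832), against 10.4% of all genes. The probe set of Ikzf1 on B stood at -0.58 ± 0.51, the other direction.

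Without E 2, which is in neither group but adds to the spread that all groups share, Jchain passed the test at -1.57 (adjusted p = 0.0221), against 7.83% of all probe sets called. Skeletal muscle markers moved with this comparison: 10 of 10 were lower in E+P, their summed signal lying between 727 and 1698 in E+P and between 5279 and 9010 in E+P CFP. The part of muscle in the lymphocyte values was not tested.

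**Figure D4:**
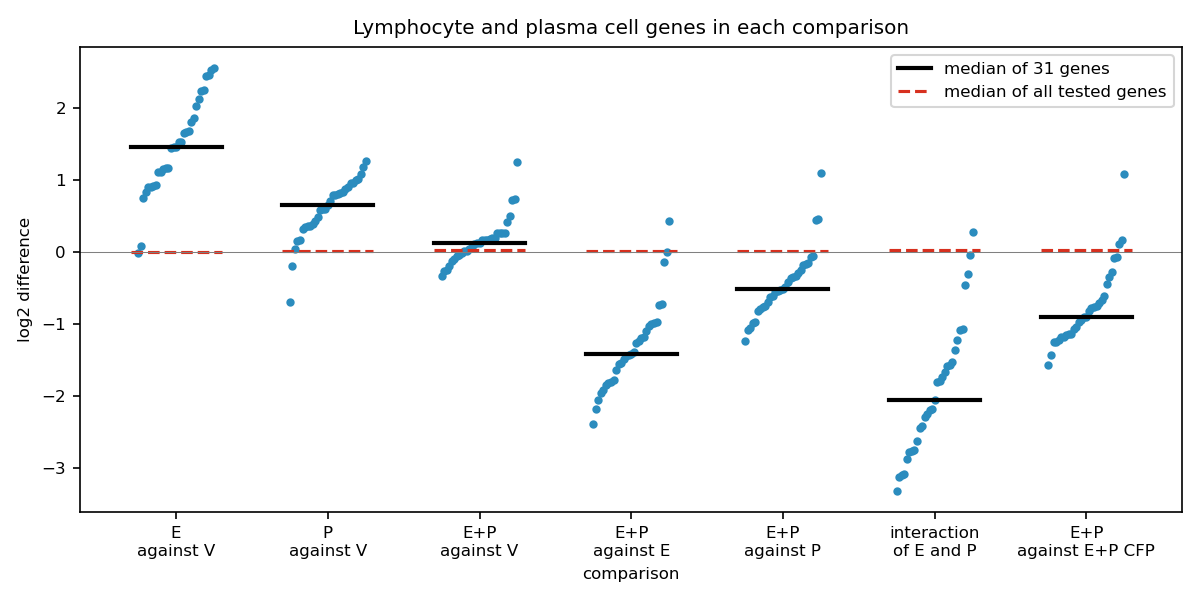
Log2 differences of the 31 tested genes in each comparison (points), with their median (black bar) and the median of all tested genes (red dashes). The medians are 1.46 in E against V, 0.65 in P against V, 0.13 in E+P against V, -1.42 in E+P against E, -0.52 in E+P against P, -2.06 for the interaction and -0.90 in E+P against E+P CFP.

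B cell, plasma cell and T cell genes did not weigh alike in every animal. In E 2 the 4 plasma cell genes deviated from their mean by 3.41 log2 units, the 7 B cell genes by 1.79 and the 11 T cell genes by 0.82. In P 2 the T cell genes stood at 1.44, while B cell genes stood at -0.13 and plasma cell genes at -0.41. P 1 was the other way round, with T cell genes at -0.61 and B cell genes at 0.08.

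V 4 was high for all of them, at 1.51 for T cell, 1.24 for B cell and 0.91 for plasma cell genes. In V 1 to V 3 the T cell genes lay between -1.32 and -1.17 and the B cell genes between -1.44 and -1.39. Among the fat pads, B cell genes stood at 0.03, 0.47 and 0.79 and T cell genes at -0.05, 0.39 and 0.92. E+P CFP 3 was the highest of the 3 for both roles. These means describe the animals and were not tested.

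**Figure D5:**
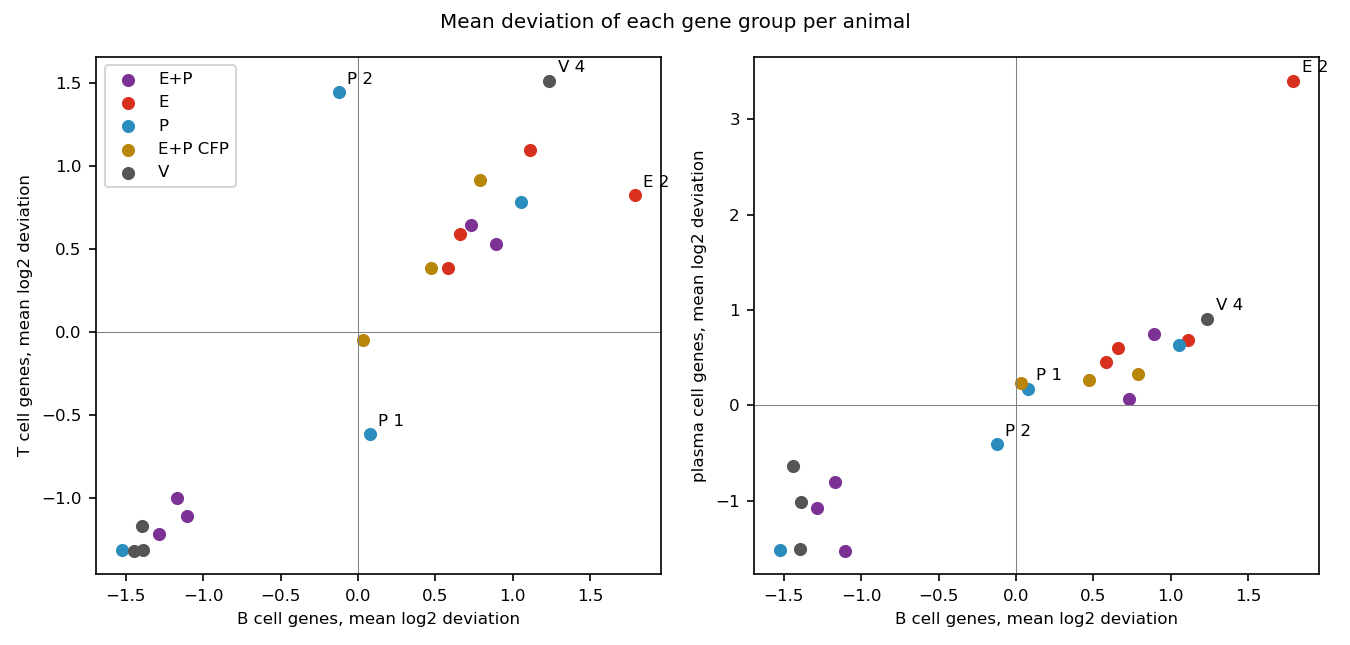
Mean log2 deviation of T cell genes (left) and plasma cell genes (right) against that of B cell genes, 1 point per animal, coloured by group. P 2 lies high for T cell genes at a B cell value near 0, and E 2 lies far above all animals for plasma cell genes.

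Other genes of the same cells, from lists of B cell, T cell and antibody genes that hold no member, had differences in the same comparisons. In E against V, 15 of 16 further B cell genes were above 0 (median 1.33), 11 of 11 further T cell genes (median 0.71), 11 of 12 immunoglobulin and further plasma cell genes (median 0.47) and 17 of 21 genes of antigen receptor signalling (median 0.45). None of these genes was called in that comparison. Macrophage and monocyte genes had a median of 0.14 with 8 of 13 above 0, and natural killer and cytotoxic genes -0.34 with 2 of 4 above 0. Antigen presentation genes had a median of 0.33 with 11 of 12 above 0.

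A few genes of the immune lists passed the test elsewhere, and most of them are also genes of mammary epithelium. Cd24a, which B cells share with luminal epithelium, was higher in E+P than in P by 1.01 ± 0.22 (adjusted p = 0.0499) and than in E+P CFP by 3.18 ± 0.24 (adjusted p = 7.36e-09). Gata3, a factor of T cells and of luminal epithelium, was higher in E+P than in E+P CFP by 4.60 ± 0.28 (adjusted p = 2.27e-10), and the monocyte gene Cd14 by 1.40 ± 0.18 (adjusted p = 2.11e-05). Kit, of mast cells and luminal progenitors, was higher in E+P than in E by 1.05 ± 0.18 (adjusted p = 0.0173), than in P by 0.90 ± 0.18 (adjusted p = 0.0286) and than in E+P CFP by 2.09 ± 0.19 (adjusted p = 1.84e-07). The mast cell tryptase gene Tpsb2 was higher in E+P than in E+P CFP by 0.96 ± 0.20 (adjusted p = 0.00459).

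Glycam1, a mucin of lymph node venules that is also a whey protein of mammary epithelium, is given for every animal as the gene of its list with the largest difference in E against V, chosen after its values were seen. It had signals of 298, 1274, 40.4, 969 and 11.8 in the E+P glands and 1233, 3535, 2545 and 2319 in the E glands. It had 522, 1664, 1597 and 7.9 in the P glands, 783, 1357 and 1040.4 in the fat pads and 9.8, 3.3, 3.8 and 1761 in the V glands. Glycam1 was thus bright in fat pads where luminal markers were low, and below the floor in V 1 to V 3. It differed by 5.63 ± 1.60 in E against V (adjusted p = 0.163). The list of 5 tested lymph node venule and stroma genes had a median of 0.18 in that comparison with 3 above 0, and the lowest was Cr1l at -0.07. The other venule marker, Madcam1, had signals of 112, 96.4, 78.7, 98 and 68.1 in E+P, 125, 154, 93.4 and 76 in E and 76.2, 118, 50.1 and 99 in V, which overlap. The summed signal of the 5 genes, in which Glycam1 has a large share, lay between 831 and 2135 in E+P, 2005 and 4364 in E, 1256 and 2693 in P, 1667 and 2345 in E+P CFP and 792 and 2507 in V. The part of lymph node tissue left in a gland was not tested.

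RNA quality differed between animals too. Gapdh control probe sets read both ends of that transcript, and their ratio (3' signal over 5' signal), averaged over the array types, was 2.20 ± 0.46 in E+P (SD, n = 5), 1.51 ± 0.21 in E (n = 4), 2.08 ± 0.54 in P (n = 4), 2.51 ± 1.55 in E+P CFP (n = 3) and 2.41 ± 0.68 in V (n = 4). It was 3.42 in V 4, the highest of the V glands, and lowest as a group in E. Its part in the lymphocyte values was not tested.

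The genes outside the set most like the members' mean profile were Btla, Ms4a4b, Cd6, Trav9d-3, Cd72, Ighm, Cd27, Ighv14-2, Irf8 and Shisa5. Likeness was the root mean square difference between standardized profiles over the 20 animals, which was 0.204 for Btla and 0.29 for Shisa5, against a median of 0.424 for the members and 1.44 for all tested genes. Ighm, the constant region of IgM, had 175, 558, 163, 615 and 129 in E+P, 515, 1093, 557 and 809.9 in E and 97, 224, 128 and 1164 in V. Btla, an inhibitory receptor of B and T cells, had 52.9, 132, 10, 114 and 4.2 in E+P, 114, 293, 137 and 144 in E and 6.9, 30.6, 23.9 and 180.0 in V. In both, V 4, E+P 2 and E+P 4 were the high animals of their groups, which follows from choosing the genes by likeness to the members.

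Since the members moved together, their promoters were searched for the motifs of lymphocyte factors. RefSeq windows of 250 bases before to 50 after the start, build GRCm38.p6, were held for 21 of the members. Some genes have several starts: the 21 members had 28 windows, and the 27025 genes had 32851. A gene was counted when any of its windows held a match, so genes with more windows have more room for one. On either strand the Ikaros core TGGGAA was found in 10 of 21 (47.6%) and in 28.3% of 27025 genes. It was in the windows of Cd22, Cd3e, Cd3g, Cd5, Cd8a, Cr2, Cxcl13, Fcer2a, Lat and Zap70, Lat being a gene that did not follow the others. The EBF core CCCNNGGG was found in 4 of 21 (19.0%) and 15.4% of genes, the RUNX core TGTGGT in 4 of 21 (19.0%) and 18.9%, and the octamer ATGCAAAT in 0 of 21 and 1.97%. A match is only a run of letters in this window.

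Windows of 2 CD3 genes, which lie with Cd3d between them on chromosome 9, and of the follicle genes Cr2 and Cxcl13 are shown to set the core in its context. Capitals mark the Ikaros core, TGGGAA or its reverse complement TTCCCA. The strand is minus for Cd3g (chr9:44980382-44980681), Cd3e (chr9:45009562-45009861) and Cr2 (chr1:195176670-195176969), and plus for Cxcl13 (chr5:95956689-95956988).
Cd3g: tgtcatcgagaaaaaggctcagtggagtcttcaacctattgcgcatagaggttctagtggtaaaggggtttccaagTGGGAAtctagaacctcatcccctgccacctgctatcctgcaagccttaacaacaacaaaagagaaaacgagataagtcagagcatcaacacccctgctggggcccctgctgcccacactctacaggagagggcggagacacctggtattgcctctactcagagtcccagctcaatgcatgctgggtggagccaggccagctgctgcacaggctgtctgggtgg
Cd3e: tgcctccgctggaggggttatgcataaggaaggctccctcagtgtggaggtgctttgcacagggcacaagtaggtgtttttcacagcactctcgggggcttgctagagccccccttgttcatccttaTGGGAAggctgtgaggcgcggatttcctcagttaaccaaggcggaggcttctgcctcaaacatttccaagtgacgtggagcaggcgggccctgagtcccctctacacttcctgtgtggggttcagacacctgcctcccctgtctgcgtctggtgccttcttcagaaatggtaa
Cr2: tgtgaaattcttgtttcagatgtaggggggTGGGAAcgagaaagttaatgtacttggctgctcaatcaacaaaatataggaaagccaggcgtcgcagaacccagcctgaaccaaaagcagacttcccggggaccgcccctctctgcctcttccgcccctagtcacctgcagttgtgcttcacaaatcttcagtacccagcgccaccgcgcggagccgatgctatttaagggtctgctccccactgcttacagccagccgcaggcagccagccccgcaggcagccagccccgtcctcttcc
Cxcl13: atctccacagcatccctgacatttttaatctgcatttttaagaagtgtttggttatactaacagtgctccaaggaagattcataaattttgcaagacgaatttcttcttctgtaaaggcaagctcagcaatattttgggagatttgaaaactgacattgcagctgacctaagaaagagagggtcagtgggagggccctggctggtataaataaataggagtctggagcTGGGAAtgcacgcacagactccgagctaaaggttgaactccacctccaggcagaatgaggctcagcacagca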

How the data were processed

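RNA of 20 animals was read on 60 arrays. The deposited values are linear signal intensities made by the authors with MAS5, per the submitters' processing notes. The MAS5 version is not given in the sources used here. The 2% trimmed mean was nearly the same on all arrays (150.03 to 150.10), from the values. Titles set the groups, and arrays of 1 group and replicate number were taken as 1 animal. No label gives a batch or a date. The description field of the V, E+P and E+P CFP arrays names progesterone treatment alone, and title and treatment protocol were followed.

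Arrays were scaled to a common 2% trimmed mean per array type, floored at its 25th percentile and turned to log2. Probe sets above the 50th percentile (61.6, 85.7 and 62.1 on A, B and C) in 3 or more animals were tested, with limma 3.58.1 in R 4.3.3: 5 group means, an intensity trend, Benjamini-Hochberg over 23055 probe sets, threshold 0.05. Where a gene had several tested probe sets, the one on the first array type (in the order A, B, C) stands for it, then one with no special suffix, then the brightest. Every member with a probe set is named, and values are printed in every animal for those with the widest range or smallest adjusted p in their role. The members, the 16 further lists and the tests were chosen with earlier results of these data known. Names came from the platform annotation. Alternatives were other scalings, floors, filters, variance models, a replicate block and each animal left out. The fit was tested on simulated data.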

Additional observations from a re-analysis of the deposited data

Results flagged for a closer look

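Within the groups of 4 or 5 animals, 1 animal lay far from the others for 19 of 124 combinations of gene and group, by the gap to the nearest animal relative to the group's whole range. Chance marks about 1 in 20 such combinations when values are normally spread and not floored, and the genes are not independent of each other. The animal was V 4 in 17 of the 19. Its log2 signals were 6.79 for Cd2, 7.27 for Cd22, 7.63 for Cd3e, 7.50 for Cd3g, 7.12 for Cd5, 9.06 for Cd79b, 6.96 for Cd8a, 7.17 for Cd8b1, 5.86 for Cr2, 7.09 for Cxcl13, 7.88 for Fcer2a, 9.66 for Ltb, 8.55 for Ms4a1, 7.54 for Mzb1, 7.29 for Pou2af1, 7.71 for Ptprc and 9.28 for Ptprcap. The other V animals lay between 3.75 and 7.43 for these genes, and for each gene all of them were below V 4. For Cd2, Cd3g, Cd5, Cd8b1, Cr2, Cxcl13, Fcer2a, Mzb1 and Pou2af1 all other V animals lay at the floor. Any V 4 value above the floor is then marked by construction, and the rate of 1 in 20 does not apply. Cd22 in P 3, at 6.80, lay above the other P animals, which were between 3.75 and 4.01. Cd79a in P 4, at 5.17, lay below the other P animals, which were between 7.47 and 7.84.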

How the results depend on the processing

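Of 7469 single gene values recomputed under 35 other settings, 7218 kept their sign and side of the threshold, 240 that no test had called changed sign and 11 passed the threshold under the setting. The count of called member probe sets in E against V, 0 in the fit used throughout, was 6 with array weights and between 0 and 5 when 1 animal was left out, the 5 without V 4. In the interaction it was between 0 and 1 when 1 animal was left out, the 1 being without V 4 or without P 4. In E+P against E+P CFP it was between 0 and 1 when 1 animal was left out, the 1 without E 2. That count was 1 with no intensity trend in the variance model (Ikzf1 at 1.08, adjusted p = 0.0468) and 1 with V 4 and E 2 both left out, a setting chosen after seeing the data (Jchain, adjusted p = 0.0207). The cause was not tested. All other counts of member calls were 0 in every setting run. The median over the members depended on single animals in 3 comparisons. In P against V it lay between 0.27 without P 2 and 1.42 without V 4, and in E+P against P between -0.99 without P 4 and -0.19 without P 2. In E against V it lay between 0.94 with a floor at the 40th percentile and 1.93 without V 4. In E+P against V it was -0.17 without E+P 2, -0.21 without E+P 4, -0.12 without V 1, -0.08 without V 2, -0.12 without V 3 and -0.01 with the floor at the 40th percentile, beside 0.13 in the fit used throughout, and 0.81 without V 4. In E+P against E+P CFP it was -0.46 with that floor, beside -0.90, and in the interaction -1.35 with an offset in place of the floor, beside -2.06. Same-numbered animals showed little joint deviation: over 36 such pairs of animals in different groups the correlation lay between -0.102 and 0.0983. Low correlation cannot exclude that the numbers pair the samples, and no label says whether they do. With the number as a replicate block, which leaves E+P 5 without a partner and so without effect, the medians were 1.46 in E against V, 0.65 in P against V, 0.35 in E+P against V, -1.18 in E+P against E, -0.22 in E+P against P, -1.66 in the interaction and -0.73 in E+P against E+P CFP, and 0 member probe sets were called. In simulated data for E against V, 39.4% of 99 changes of 2-fold and 77.3% of 97 changes of 4-fold were recovered over 22705 tested probe sets. The simulated noise was independent between probe sets, and the changed probe sets were drawn at random from the tested ones. These rates do not carry over to the members, which moved together. Dim signals near the floor and 3 to 5 animals per group limit the precision, and p-values measure only the spread between these animals.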

Other observations

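Genes of other tissues in the same animals are given as values. In E+P against E+P CFP, where 7.9% of all probe sets were called, 11 of 11 luminal epithelium markers passed the test as higher in E+P with a median of 3.94, 5 of 5 basal markers lay above 0 and 3 passed (Trp63, Acta2 and Cnn1), and 8 of 8 adipocyte markers lay below 0 and 5 passed (Retn, Lipe, Lpl, Pparg and Adipoq) with a list median of -0.61. Luminal Krt19 was higher in E than in V by 1.19 ± 0.21 (adjusted p = 0.0185), Ehf higher in E+P than in V by 1.55 ± 0.32 (adjusted p = 0.0309) and the tight junction gene Cldn4 higher in E+P than in P by 1.57 ± 0.33 (adjusted p = 0.0424). The endothelial gene Cldn5 was lower in E than in V, at -1.20 ± 0.21 (adjusted p = 0.0147), and in E+P than in V, at -0.98 ± 0.19 (adjusted p = 0.0292). Cdh5, the vascular cadherin, was lower in E+P than in V, at -0.96 ± 0.19 (adjusted p = 0.0292), and in E+P than in E+P CFP, at -1.12 ± 0.21 (adjusted p = 0.00131).

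Genes that guide plasma cells into glands or carry antibody across epithelium were not called in any comparison, with a median of 0.06 over 6 tested genes in E against V and 4 of them above 0. Red blood cell genes had a median of -0.06 over 3 tested genes in E against V. Skeletal muscle markers had a median of 0.01 over 10 genes in E against V, with E 1 holding the highest summed signal of the whole glands, 4838.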
